A study of Mus musculus with 3 samples.

Results

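Venous endothelial nuclei were the nuclei of interscapular brown adipose tissue (BAT) that carried transcripts of endothelial genes together with transcripts of 3 vein genes, Vwf, Selp and Plvap. They were chosen by their UMI counts. A UMI is a molecular tag that lets amplified copies of 1 captured transcript be counted once. Barcodes were kept from 200 detected genes upward and up to a mitochondrial share of 50%. Among these, a nucleus entered the endothelial gate when its summed UMIs of Pecam1, Flt1, Kdr, Ptprb, Cyyr1 and Adgrl4 came to at least 1, were above those of the adipocyte genes Adipoq, Plin1, Pparg, Cidea and Ppara, and were at least 2 times those of the mural genes Pdgfrb, Notch3, Abcc9 and Kcnq5. Within this gate a venous nucleus had at least 2 UMIs of Vwf, Selp and Plvap in sum and 0 UMIs of the artery genes Alox12, Sema3g and Gja5. This rule found 170 of 36281 nuclei, 29 in the untreated library, 101 in the sham library and 40 in the denervated library.

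All 3 libraries were labelled as BAT of adult wild-type C57Bl6 mice and were made from nuclear RNA. The header inside the table labelled denervation names its sample with the letters nKO, where that of the untreated table has nC. What nKO stands for is not given, so the genotype of the library labelled denervation, called the denervated library here, rests on its label alone. The untreated tissue came from 20 mice that were 8 weeks old, as the study's methods and legends give it, the second library was labelled as a sham operation, for which the number of mice is not given in the sources used here, and the third was BAT of 20 male mice, 8 weeks old, taken 3 days after denervation. The study's legend for this library also names tamoxifen administration, and tamoxifen is not named there for the untreated mice, so its part in any difference between these libraries cannot be told apart from that of denervation. In the study's methods this is a cut of the intercostal nerves of the left BAT lobe only, with the right side kept as a control. The study names the denervated side as the tissue of this library, and its methods state that all mice used were male. After digestion of the BAT, nuclei came from its floating layer, where brown adipocytes (BAs) lie together with pieces of vessels, so the share of vessel types in it need not be that of the intact tissue. Each condition was 1 pooled library. No value therefore has a replicate spread, no p-value is given, and every interval covers counting error only.

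Veins collect blood from the capillary bed, and their endothelial cells (ECs) are the main site at which leukocytes leave the blood. Selp encodes P-selectin and Vwf encodes von Willebrand factor, which share a storage granule and are released when the vessel wall is disturbed. Plvap encodes the protein of the diaphragm that spans endothelial fenestrae and caveolae. Venous identity is held by the orphan nuclear receptor COUP-TFII, the product of Nr2f2, which keeps Notch signaling and with it the arterial programme low. Capillary ECs of BAT are the ones best known for taking up fatty acids, through the lipoprotein lipase anchor GPIHBP1 and the scavenger receptor CD36.

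The members carried 42313 UMIs in the untreated, 99603 in the sham and 45829 in the denervated library, and the deepest single nucleus held 9.72%, 4.42% and 10.3% of them. Their median depth was 1271, 794 and 1026.5 UMIs per nucleus. They made up 0.517% (exact binomial 95% interval 0.346% to 0.741%), 1.60% (1.31% to 1.94%) and 1.60% (1.15% to 2.17%) of the nuclei in the endothelial gate, in the same order. Since the rule asks for 2 UMIs of 3 genes, deeper nuclei pass it more easily, so each nucleus of the gate was also thinned to 500 UMIs and shallower ones were left out. This kept 3986, 3805 and 917 nuclei, and the shares were 0.276% (0.138% to 0.493%), 1.55% (1.18% to 2.0%) and 1.85% (1.08% to 2.95%), so the untreated library had the lowest share at equal depth too. Members with exactly 2 marker UMIs, just inside the threshold, numbered 10, 44 and 11, while 79, 155 and 50 nuclei lay just outside it with 1 marker UMI. The largest marker sum in 1 nucleus was 12, 18 and 24 UMIs. A further 2, 12 and 2 nuclei had the marker sum but were left out for an artery UMI. Libraries shared between 251 and 278 barcode numbers pairwise, none with the same counts, and no member's barcode number was shared.

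Comparison nuclei were endothelial nuclei with no UMI of the 3 vein genes and with at least 3 UMIs of the endothelial genes, at least 4 times those of the adipocyte and of the mural genes. They numbered 4359, 4092 and 1461 and were shallower than the members, with a median of 720, 577 and 420 UMIs. They were not cleared of artery UMIs, so 2 further classes stood beside them. Arterial nuclei (281, 228 and 74) passed the endothelial gate with at least 2 UMIs of the artery genes and 0 of the vein genes, and adipocyte nuclei (4185, 3339 and 3853) which had at least 5 UMIs of the adipocyte genes and at least 4 times those of the other gates, served as the measure of free RNA. Levels are UMIs of a gene per 1000000 UMIs of the class (CPM), and a difference is the log2 ratio of 2 CPM values of the same library.

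Most members rested on Plvap. Over all libraries, 57 members had UMIs of Plvap alone, 20 of Selp alone and 7 of Vwf alone. Another 31 had Vwf with Plvap, 23 Selp with Plvap, 16 Vwf with Selp, and 16 had all 3 genes. Thus 84 members rested on 1 gene, 70 on 2 genes and 16 on 3 genes. The levels that chose the members were 898, 693 and 676 CPM for Vwf, 378, 994 and 1135 CPM for Selp and 1512, 2239 and 2575 CPM for Plvap. On GRCm38 these protein-coding genes lie at chr6:125546774-125686679 (Vwf, plus strand), chr1:164115264-164150026 (Selp, plus strand) and chr8:71497765-71511752 (Plvap, minus strand). Of the genes of the gate, Flt1, a VEGF receptor, was at 3521, 2912 and 2378 CPM in members and 3560, 3121 and 3900 CPM in comparison nuclei, and Kdr, the main signaling receptor of VEGF, was at 874, 1376 and 1680 CPM against 3209, 1851 and 2599 CPM.

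To ask whether the 3 genes mark the same nuclei, each was left out in turn, and its level was read in nuclei chosen by the other 2. Vwf, which took no part in this choice, was at 646 CPM in the untreated library, at 444 CPM in the sham library and at 517 CPM in the denervated library. In endothelial nuclei with no UMI of Selp and Plvap it was at 5.77, 14.8 and 12.4 CPM, which gives log2 ratios of 6.81 (95% interval 5.84 to 7.78), 4.91 (4.23 to 5.58) and 5.39 (4.21 to 6.69). The nuclei with a Vwf UMI were 42.9%, 25.0% and 22.2% of those chosen by Selp and Plvap, but 0.388%, 0.872% and 0.612% of the endothelial nuclei without those 2 genes and 0.143%, 0.299% and 0.311% of adipocyte nuclei. The chosen nuclei had a median of 1604, 844.5 and 1028 UMIs, and the adipocyte nuclei a median of 1902, 1505 and 1070 UMIs.

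Selp behaved alike. In nuclei chosen by Vwf and Plvap it was at 198, 447 and 244 CPM, against 4.57, 28.3 and 5.53 CPM without them, and the log2 ratios were 5.44 (4.0 to 6.77), 3.98 (3.34 to 4.59) and 5.46 (3.67 to 7.59). Plvap was the most abundant of the 3 in nuclei chosen without it, at 1340, 666 and 2252 CPM. It was also the one most often seen elsewhere in the endothelium, at 22.8, 70.9 and 101 CPM in nuclei without Vwf and Selp, and its log2 ratios were 5.88, 3.23 and 4.48. The interval of the ratio lay above 0 for each gene in every library.

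**Figure D1:**
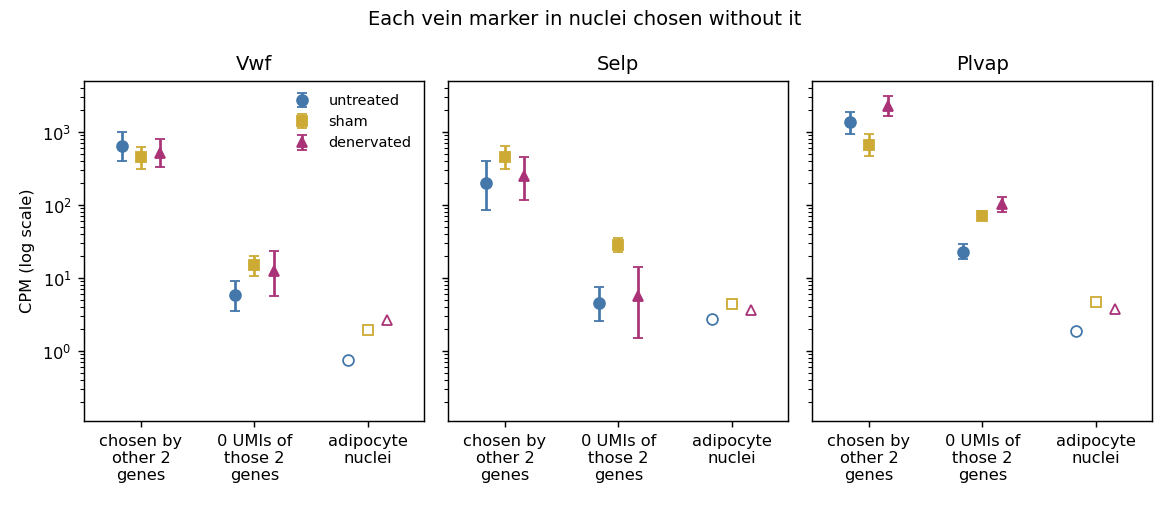
CPM on a log axis of Vwf, Selp and Plvap in nuclei chosen by the other 2 genes, in endothelial nuclei with no UMI of those 2 genes, and in adipocyte nuclei (open symbols, no interval drawn). Bars are exact Poisson 95% intervals, and in all 3 panels and libraries the chosen nuclei lie far above the others, as for Vwf at 646 against 5.77 CPM in the untreated library.

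Genes outside the rule were then compared between members and comparison nuclei, among 4898 genes with a mean of at least 50 CPM in either class. Because the nuclei were chosen on the same counts, these values describe the members and no test was made. A gene was called higher or lower when its log2 ratio was at least 1 in size in the same direction in each of the 3 libraries. By this rule 177 genes, or 3.61% of those compared, were higher, and 44 genes, or 0.898%, were lower. A gene that reached 50 CPM only in the members could hardly be called anything but higher. This held for 137 of the 177 higher genes, and 11 of the 44 lower genes reached it only in comparison nuclei, so these counts are set in part by the minimum. Of the 177 genes, 142 were also higher than in arterial nuclei of every library, 55 of them by a log2 ratio of at least 1 each time, and 100 had an interval above 0 in all 3 libraries. Only 40 of the 177 and 2 of the 44 had at least 10 UMIs in the members of each library, so many single ratios rest on few molecules. The median log2 ratio of all genes was 0.01 in each library. With any 1 library left out the rule is looser and gave between 299 and 376 higher genes.

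Several genes of the vein list were higher in the members. Of its 15 genes, 13 could be compared, 9 of them were higher and 0 lower, and 12 had a positive ratio in all libraries, with a median of 2.57 over the list against 0.10 over all genes. Of the 9 higher genes, Ackr1, Lrg1, Sele, Slco2a1, Tll1 and Vcam1 reached the minimum only in the members, which had to differ, so the count and the median are no support for the list. The other 3, Nr2f2, Il1r1 and Icam1, reached it in comparison nuclei too. Bst1, with 4 UMIs in all members, was too low to compare. Lrg1, which encodes a secreted glycoprotein that modulates TGF-beta signaling in endothelium, was the best counted of the 9. It was at 425 CPM in the untreated members, 934 CPM in the sham members and 1593 CPM in the denervated members, with 18, 93 and 73 UMIs. In comparison nuclei it was at 16.2, 18.8 and 92.9 CPM, and the log2 ratios were 4.72 (3.86 to 5.51), 5.64 (5.14 to 6.15) and 4.10 (3.6 to 4.6). The members were thus above the comparison nuclei in all libraries, and the adipocyte nuclei were at 45.7, 41.5 and 83.4 CPM.

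Nr2f2, which encodes COUP-TFII, was at 402, 382 and 655 CPM in members and at 90.3, 124 and 63.8 CPM in comparison nuclei. Its log2 ratios of 2.15 (1.35 to 2.86), 1.62 (1.10 to 2.11) and 3.36 (2.65 to 4.05) were smaller than those of Lrg1, and arterial nuclei held still less of it, at 57.7, 88.5 and 54.6 CPM. Ackr1, the atypical chemokine receptor that marks venules, was rare. It had 3, 10 and 8 UMIs in members, at 70.9, 100 and 175 CPM, against 0, 1 and 0 UMIs in comparison nuclei and 0 in arterial nuclei. Set against 3 counts in the comparison nuclei of a library, Ackr1 had a log2 ratio of 6.27 in the untreated and 5.39 in the denervated members. These values leave out the counting error of its 3 and 8 UMIs there. In the sham members the ratio to the single UMI had an interval of 5.36 to 13.61.

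Slco2a1, which encodes the prostaglandin transporter, was at 307, 301 and 436 CPM in members, with log2 ratios of 4.0, 3.30 and 3.13. Tll1, a protease of the BMP1 family, had ratios of 3.61, 3.30 and 3.56, and Il1r1, the signaling receptor of interleukin-1, had ratios of 3.03, 1.40 and 1.45. Both receptors of venous patterning that the list holds were less distinct. Ephb4, the venous partner of ephrin-B2, had ratios of 1.03, 0.37 and 0.67, and Nrp2 had ratios of 0.45, 0.33 and 0.42. Emcn, which encodes the sialomucin endomucin of veins and capillaries, did not differ past 2-fold in any library, with ratios of -0.59, 0.07 and -0.19.

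The capillary list went the other way. All of its 12 genes were compared, 0 were higher and 3 lower, where 3.61% of all genes were higher and 0.898% lower. A negative ratio in each library was found for 11 of the 12, and the list median was -1.08. Btnl9, a butyrophilin-like gene of capillary endothelium, was at 260, 251 and 43.6 CPM in members and at 1223, 650 and 721 CPM in comparison nuclei, with log2 ratios of -2.23 (-3.24 to -1.39), -1.37 (-2.0 to -0.81) and -4.05 (-7.10 to -2.19). Car4, the membrane-bound carbonic anhydrase, had ratios of -2.65, -1.23 and -2.86 from 3, 41 and 2 UMIs, and Rgcc had ratios of -1.26, -1.07 and -2.35. Gpihbp1 was at 331, 442 and 196 CPM against 820, 879 and 775 CPM, a ratio of -1.31, -0.99 and -1.98 that missed the threshold in the sham library. The 2 most abundant genes of the list differed less, since Cd36 still had 3214, 3926 and 2706 CPM in members, with ratios of -0.76, -0.18 and -0.47, and Fabp4 had ratios of -0.29, -0.32 and -0.24. Fabp5 was the only gene of the list with a positive ratio in each library.

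**Figure D2:**
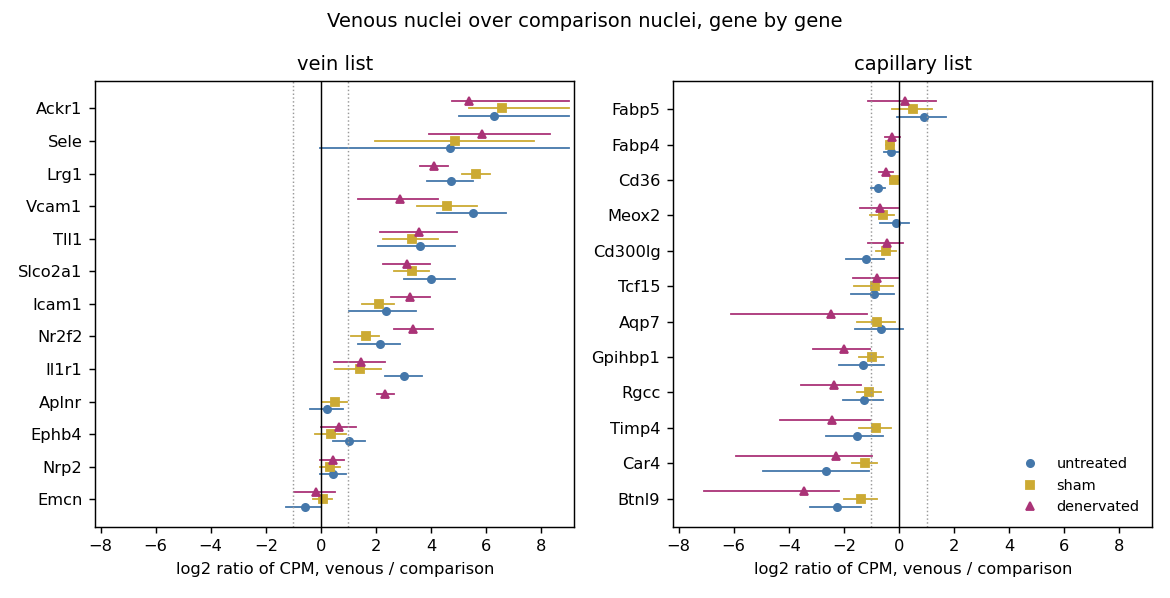
Log2 ratio of CPM, members over comparison nuclei, for each compared gene of the vein list (left) and the capillary list (right), with 1 symbol per library and exact 95% intervals cut at the edges of the panel, where a lower class under 3 counts is set to 3 counts. Dotted lines mark a log2 ratio of 1 in size, and 9 of 13 vein genes lie beyond it on the right and 3 of 12 capillary genes beyond it on the left in all libraries.

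The artery list was divided. Of 9 genes compared, Dll4, the main endothelial Notch ligand, was lower, with 1, 5 and 2 UMIs in members and log2 ratios of -3.55 (-8.86 to -1.07), -1.99 (-3.62 to -0.76) and -2.32 (-5.38 to -0.44), and Fbln2, a matrix protein of elastic vessels, was higher, with ratios of 2.99, 1.91 and 3.01. Dll4 reached the minimum only in comparison nuclei, so it could hardly be called anything but lower. Against arterial nuclei the ratios of Fbln2 were 0.66, 0.29 and 2.33. Efnb2, which encodes ephrin-B2, had negative ratios of -2.42, -0.93 and -2.28 from 2, 11 and 2 UMIs. The summed level of the list was 2151, 3634 and 1855 CPM in members, 2117, 1969 and 2178 CPM in comparison nuclei and 5214, 3136 and 3842 CPM in arterial nuclei, so the sham members were above the arterial nuclei of their library. Cxcl12, a chemokine gene, made up 192 of the 362 UMIs of the list in the sham members, at 1928 CPM against 471 CPM in comparison nuclei, with 29 UMIs in 1 nucleus, while its ratios in the untreated and denervated libraries were 0.57 and -0.20. Among the receptors and ligands of the VEGF, Tie and Notch families, 14 were compared, and besides Dll4 the ligand gene Dll1 was called, with higher ratios of 2.63, 1.09 and 2.49. Of 21 endothelial transcription factors compared, Nr2f2 was the 1 gene called, where 3.61% of all genes were higher and 0.898% lower. The counts of the artery list and of the VEGF, Tie and Notch families are to be read beside the same shares.

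Markers of cell types outside the rule had few UMIs in the members. The lymphatic genes Prox1, Lyve1, Pdpn, Mmrn1, Ccl21a and Tbx1 had 0 UMIs in all members, and the only compared gene of that list, Flt4, had ratios between -1.56 and 0.08. The platelet list had 1 UMI, the immune list 5, the fibroblast list 4, the Schwann list 2, the skeletal muscle list 2 and the mesothelial list 0 UMIs in all members. The cycling list, Mki67 and Top2a, had 5 UMIs, all in the denervated library. The smooth muscle list had 26 UMIs, of which 20 were of Tagln, an actin-binding protein gene called higher with ratios of 6.64, 3.46 and 3.98. The other genes of that list gave 4 UMIs of Acta2, 2 of Myh11 and 0 of Cnn1. Tagln was the only gene of that list compared, where 3.61% of all genes were higher. It reached the minimum only in the members, so it could hardly be called anything but higher. Adipocyte genes, which the rule only limits, were not near 0. Their UMIs were present in 44.8%, 28.7% and 45.0% of members and in 44.4%, 35.4% and 32.5% of comparison nuclei. Pparg was at 614.5, 331 and 284 CPM in members, 559, 519 and 413 CPM in comparison nuclei and 2372, 1976 and 3182 CPM in adipocyte nuclei. Cidea was at 284, 50.2 and 175 CPM in members against 134, 49.4 and 186 CPM in comparison nuclei, and Plin1 at 213, 60.2 and 87.3 CPM against 87.3, 49.7 and 98.4 CPM. Both were thus higher in the untreated members, where 5 of 12 UMIs of Cidea and 6 of 9 of Plin1 came from 1 nucleus each. Comparison nuclei had the tighter limit on adipocyte genes, so differences in these genes are set in part by the rule. Ppara was at 23.6, 70.3 and 175 CPM against 22.6, 21.9 and 37.4 CPM, with 6 of its 8 denervated UMIs in 1 nucleus. Mural UMIs were present in 2, 9 and 3 members.

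The 15 genes with the largest ratios in their weakest library were Ackr1, Prss23, Sele, Ehd4, Fam174b, Fam167b, Myof, Lrg1, Bmp4, Cadm3, Csf2rb2, Plekha7, Amigo2, Ctnnal1 and Golm1. All 15 reached the minimum of 50 CPM only in the members, so they could hardly be called anything but higher. Ehd4, which encodes an ATPase that remodels endocytic and caveolar membrane, was the best counted of them. It was at 1324, 904 and 1549 CPM in members, from 56, 90 and 71 UMIs, and at 26.9, 36.5 and 47.1 CPM in comparison nuclei, with log2 ratios of 5.62 (5.11 to 6.12), 4.63 (4.21 to 5.05) and 5.04 (4.43 to 5.67). Arterial nuclei held 57.7, 61.9 and 109 CPM of Ehd4, and adipocyte nuclei 13.2, 8.23 and 13.3 CPM. The members of each library thus lay at least 3.83 above arterial nuclei on the log2 scale. Prss23, which encodes a secreted serine protease, had 10, 27 and 8 UMIs and log2 ratios of 5.90, 5.02 and 6.98, the last against 1 UMI in comparison nuclei. Sele, Fam167b, Myof and Cadm3 each had a single UMI in the untreated members, so their ratios there have intervals that reach below 0.

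Several abundant genes had smaller ratios with narrow intervals. Il6st, which encodes gp130, the shared signal-transducing receptor of interleukin-6 type cytokines, had the most UMIs of all genes called, 87, 173 and 127. It was at 2056, 1737 and 2771 CPM in members against 139, 160 and 202 CPM in comparison nuclei, and its log2 ratios of 3.88 (3.53 to 4.22), 3.44 (3.18 to 3.70) and 3.78 (3.42 to 4.13) differed little between libraries. Eln, which encodes elastin, the recoil protein of larger vessels, was at 1465, 793 and 1724 CPM against 47.6, 151 and 49.9 CPM, and its ratio in the sham library, 2.40, was below those of the untreated (4.94) and denervated (5.11) libraries. Of the 79 UMIs of Eln in the denervated members, 23 came from 1 nucleus. Il6st was picked here for its UMI count, after its values had been seen.

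**Figure D3:**
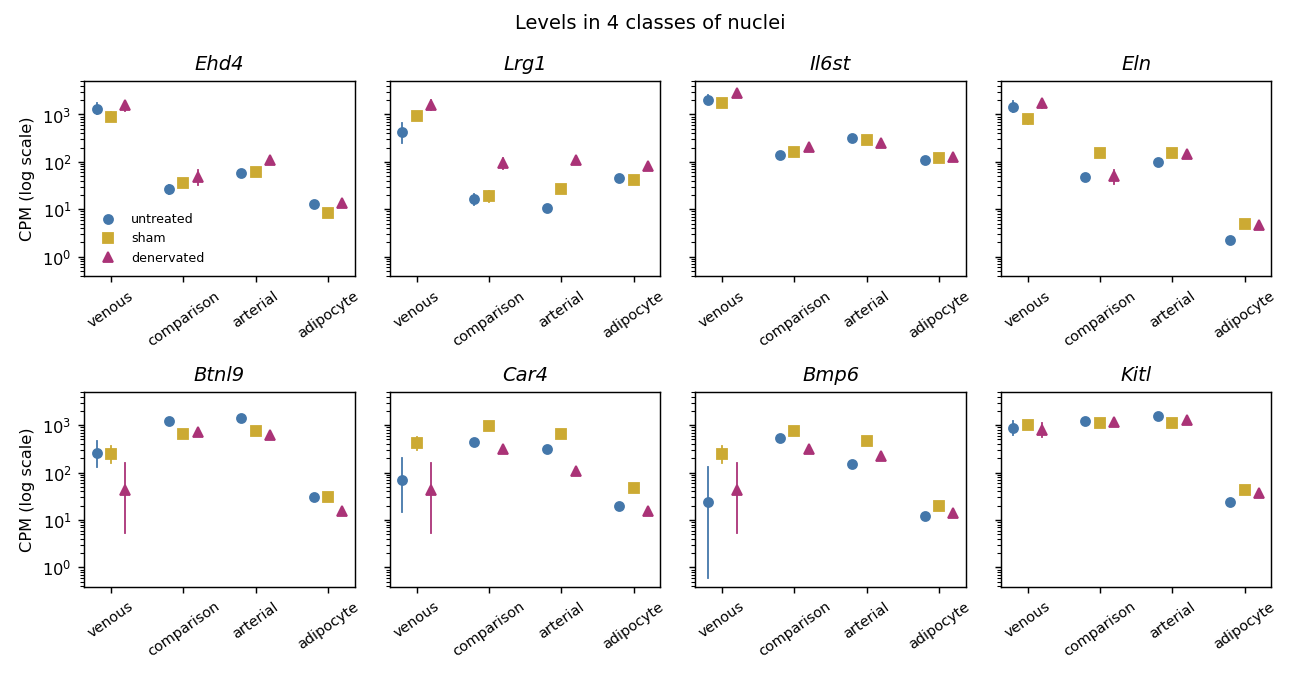
CPM on a log axis of 8 genes in members, comparison nuclei, arterial nuclei and adipocyte nuclei, with 1 symbol per library and exact Poisson 95% intervals for the first 2 classes. Ehd4, Lrg1, Il6st and Eln were highest in the members, Btnl9, Car4 and Bmp6 were lower there than in comparison nuclei, and Kitl was at 874, 1004 and 807 CPM in members against 1225, 1104 and 1144 CPM in comparison nuclei.

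Genes of leukocyte adhesion and passage came next. Of 13 compared, 5 were higher and 0 lower, where 3.61% of all genes were higher and 0.898% lower, and the list median was 0.65 against 0.10 over all genes. The higher genes were Ackr1, Sele and Vcam1, which reached the minimum only in the members, and Icam1 and Cd34, which reached it in both classes. The first 3 could hardly be called anything but higher, so the count and the median are no support for the list. Vcam1, the receptor of the leukocyte integrin VLA-4, was at 236, 151 and 153 CPM, with ratios of 5.51 (4.22 to 6.72), 4.59 (3.50 to 5.66) and 2.88 (1.34 to 4.26). Icam1, the receptor of LFA-1, was at 165, 301 and 633 CPM, with ratios of 2.35, 2.10 and 3.25. Sele encodes E-selectin and had 1, 3 and 11 UMIs, 15 in all, against 1, 3 and 3 UMIs in the far larger comparison class. Genes of the junction were not called but were not alike. Jam2, F11r and Esam had ratios between -0.64 and 0.31. Cdh5, which encodes VE-cadherin, had ratios of -1.40 (-2.32 to -0.63), -0.55 (-0.98 to -0.15) and 0.12 (-0.41 to 0.61). Cldn5, the main endothelial claudin gene, was at 70.9, 422 and 262 CPM in members against 825, 796 and 926 CPM, and its ratios of -3.54 (-5.82 to -1.99), -0.92 (-1.39 to -0.48) and -1.82 (-2.78 to -1.01) missed the threshold in the sham library only.

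The promoters of the 2 selectin genes, which lie near each other on chromosome 1, are shown because P-selectin chose the members and E-selectin was among the genes with the largest ratios. Both are 250 bases ending at the annotated start, from RefSeq on GRCm38.p6 and on the plus strand, at chr1:164115014-164115263 for Selp and chr1:164047984-164048233 for Sele. Capitals mark the COUP-TF motif AGGTCA read on the other strand.
Selp: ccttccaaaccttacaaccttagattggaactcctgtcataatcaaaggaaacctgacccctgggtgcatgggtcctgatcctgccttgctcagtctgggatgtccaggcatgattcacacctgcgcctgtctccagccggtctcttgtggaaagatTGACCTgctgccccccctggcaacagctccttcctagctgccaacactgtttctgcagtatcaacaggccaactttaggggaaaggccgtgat
Sele: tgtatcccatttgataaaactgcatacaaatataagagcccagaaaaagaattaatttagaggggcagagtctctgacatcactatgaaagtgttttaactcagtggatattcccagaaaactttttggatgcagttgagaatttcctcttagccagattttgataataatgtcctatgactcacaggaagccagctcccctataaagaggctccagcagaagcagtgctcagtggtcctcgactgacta
The motif of Selp began 93 bases before the start, and Sele held none in this window. Over the promoters of the genes called higher, 133 of 177 genes matched the table with 176 promoters of 300 bases each. AGGTCA was found on either strand in 9.66% of them and in 16.3% of all 32851 promoters, AGATAA, the GATA motif, in 5.68% and 11.2%, and GGAA, the ETS core, in 93.2% and 96.0%. None of the 3 motifs was thus more frequent in the promoters of the genes higher in venous nuclei.

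Other lists are set beside the 3.61% of all genes that were higher and the 0.898% that were lower. Of the 768 genes that reached the minimum only in the members, 137 were called higher. The share over all genes is therefore a poor measure for lists rich in such genes. Of 6 genes of vessel tone compared, 3 were higher: Ptgs1, the constitutive cyclooxygenase, with ratios of 3.47, 2.93 and 3.70, Ace, the angiotensin-converting enzyme, with ratios of 3.95, 2.70 and 2.85, and Edn1, the endothelin-1 gene, with ratios of 2.69, 2.04 and 2.75 from 3, 8 and 3 UMIs. Edn1 was at 70.9, 80.3 and 65.5 CPM in members, and at 75.8, 88.5 and 36.4 CPM in arterial nuclei. All 3 reached the minimum only in the members, so this count is no support for the list. Of 16 genes of basement membrane and matrix, 4 were higher, Eln, Col15a1, Bgn and Vwa1, of which Bgn reached the minimum only in the members. Of 5 haemostasis genes compared, 0 were called, although Thbd, the thrombin receptor thrombomodulin, had ratios of 2.07, 1.77 and 0.56. Of 10 genes of fatty acid handling compared, Slc27a3 was called higher from 4, 11 and 2 UMIs. It reached the minimum only in the members, so it could hardly be called anything but higher. Lpl was at 473, 703 and 305 CPM against 1349, 1368 and 1097 CPM, with ratios of -1.51, -0.96 and -1.84. Adipocyte nuclei held 1598, 2615 and 1524 CPM of Lpl, so free RNA can add to its level in both endothelial classes, and its part was not tested.

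The 15 genes lowest in members by the same rule were Hba-a1, Dll4, Prag1, Bmp6, Rsad2, Efr3b, Rapgef2, Vav3, Btnl9, Rcsd1, Sh2d3c, St5, Spred2, Arhgef28 and Afdn. Of these, Hba-a1, Dll4, Rcsd1 and St5 reached the minimum of 50 CPM only in comparison nuclei, so they could hardly be called anything but lower. Hba-a1, a globin gene of red blood cells, had 0, 6 and 3 UMIs in members. Afdn, which encodes the junctional adaptor afadin, was the best counted, with 17, 61 and 19 UMIs, levels of 402, 612 and 415 CPM against 1231, 1491 and 1040 CPM, and ratios of -1.61 (-2.40 to -0.93), -1.28 (-1.67 to -0.92) and -1.33 (-2.07 to -0.67). Rsad2, an interferon-induced antiviral gene, had ratios of -2.95, -1.44 and -1.47. It was the only 1 called of 4 interferon genes compared, where 0.898% of all genes were lower. Rcsd1 rested on 2, 6 and 1 UMIs.

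The study asked which endothelial ligands could act on BAs and followed Kitl, which encodes stem cell factor (SCF). Kitl was present in venous nuclei at 874, 1004 and 807 CPM, from 37, 100 and 37 UMIs. Comparison nuclei held 1225, 1104 and 1144 CPM, arterial nuclei 1544, 1097 and 1256 CPM, and adipocyte nuclei 24.4, 42.3 and 38.0 CPM. The log2 ratios of members over comparison nuclei were -0.49 (-0.99 to -0.02), -0.14 (-0.44 to 0.15) and -0.50 (-1.02 to -0.03), with a mean of -0.38 over the libraries. The lower bounds averaged -0.82 and the upper bounds 0.03, which is not an interval of that mean. Kitl was below the comparison nuclei in the untreated and denervated libraries by intervals that end just under 0. Members with Plvap alone were at 576, 840 and 550 CPM, from 8, 27 and 11 UMIs. Those with Vwf or Selp were at 1020, 1082 and 1007 CPM, from 29, 73 and 26 UMIs.

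Bmp6, another ligand the study names, was the gene of that list called lower. It had 1, 25 and 2 UMIs in members, at 23.6, 251 and 43.6 CPM, against 542, 761 and 317 CPM in comparison nuclei, with ratios of -4.52 (-9.82 to -2.04), -1.60 (-2.23 to -1.03) and -2.86 (-5.92 to -0.99). Bmp4, of the same family, was called higher from 2, 11 and 4 UMIs, with ratios of 4.47, 4.06 and 4.39. Among the 15 angiocrine ligands compared, Igf1, with ratios of 3.78, 2.38 and 2.56, and Edn1 were the others called higher. Of all genes compared, 3.61% were higher and 0.898% lower. Bmp4 and Edn1 reached the minimum only in the members, so they could hardly be called anything but higher. Efnb1 had ratios of -0.50, -0.78 and -1.99, and Hspg2, the perlecan gene, had ratios of -1.07, 0.21 and 0.17. Kit, the SCF receptor, had 1, 0 and 4 UMIs in members.

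Members were not all alike. The summed level of the vein list, none of whose genes chose the nuclei, was 2666, 2090 and 2436 CPM in endothelial nuclei of the gate without a vein or artery marker UMI, and 3807, 2798 and 3558 CPM in nuclei with 1 marker UMI. It was 5410, 4008 and 5949 CPM in members with 2 marker UMIs and 4881, 5076 and 9385 CPM in members with 3 or more, so it did not go up between these last classes in the untreated library. The capillary list was at 15842, 15266 and 10871 CPM at a marker sum of 0, at 8984, 12846 and 7139 CPM at 2 and at 9918, 10761 and 7135 CPM at 3 or more. Nuclei just outside the rule were thus intermediate for the vein list in every library.

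**Figure D4:**
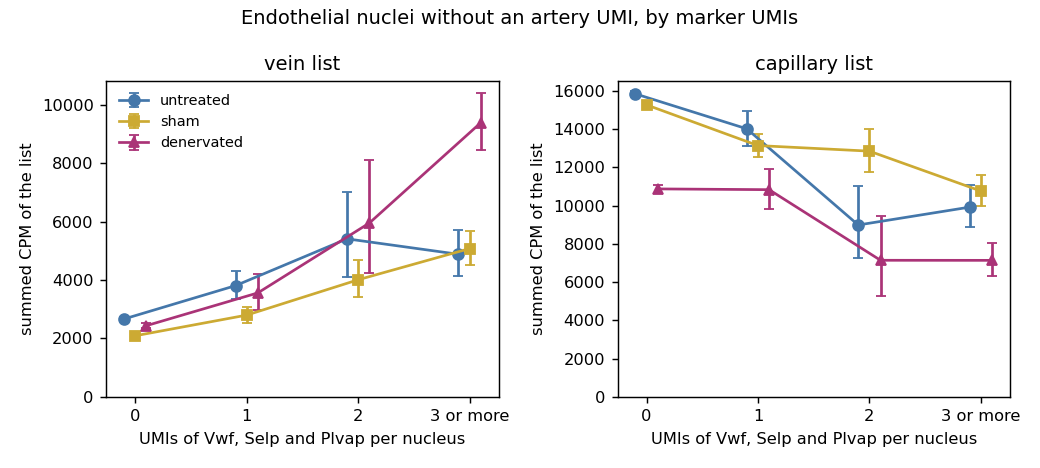
Summed CPM of the vein list (left) and the capillary list (right) in nuclei of the endothelial gate without an artery UMI, by their summed UMIs of Vwf, Selp and Plvap, with 1 line per library and exact Poisson 95% intervals. The vein list goes from 2436 CPM at 0 to 9385 CPM at 3 or more marker UMIs in the denervated library.

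The genes behind membership mattered too. Members with UMIs of Plvap alone had 3455, 3514 and 6744 CPM of the vein list, below the 5770, 5204 and 10538 CPM of members with Vwf or Selp. Icam1 was at 71.98, 93.3 and 150 CPM in the former, from only 1, 3 and 3 UMIs. In the latter it was at 211, 400 and 1007 CPM, from 6, 27 and 26 UMIs. The capillary list was at 9574, 13155 and 6594 CPM in the former and 9746, 10823 and 7555 CPM in the latter, so it did not differ in 1 direction. These numbers rest on 8, 33 and 16 nuclei with Plvap alone. Even so, Lrg1 in the sham library was at 1057 CPM in Plvap-only members and 875 CPM in the others.

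The vein list was also counted per nucleus. At least 2 UMIs of the vein list were found in 79.3% (60.3% to 92.0%), 80.2% (71.1% to 87.5%) and 87.5% (73.2% to 95.8%) of the members. In comparison nuclei matched on UMIs per nucleus, 5 for each member, these shares were 71.7%, 47.1% and 42.0%. The matched nuclei had a median of 1270, 795 and 863.5 UMIs, so in the denervated library they stayed shallower than the members, and the interval of the untreated library, 63.7% to 78.9%, overlapped that of its members. Adipocyte nuclei reached 36.3%, 27.3% and 26.9% at greater depth, where Nrp2, a gene of the list, was at 498, 454 and 600 CPM.

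Members of the denervated library were compared with those of both other libraries, over 3545 genes with at least 100 CPM in the members of a library. With 1 library a condition and 40 denervated members, this compares libraries and not conditions. Both ratios share the denervated members. A gene was called when its log2 ratio was at least 1 in size against both the untreated and the sham members, and 294 genes, or 8.29%, were higher and 145 genes, or 4.09%, lower. Of the 294 higher genes, 184 reached 100 CPM only in denervated members, and 99 of the 145 lower genes were under it there, so the minimum sets part of these counts too. Both intervals lay clear of 0 for 108 of the higher and 49 of the lower genes. Over the same genes, comparison nuclei, with many more UMIs, gave 74 higher and 15 lower, of which 29 and 4 were called in the members too. The median ratio over all genes was 0.02 against untreated and 0.25 against sham members, and with these medians set to 0 the calls were 234 higher and 212 lower, so the balance of directions depends on the scaling.

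Genes of basement membrane and matrix were the list with the most higher calls. Of 16 compared, where 8.29% of all genes were higher and 4.09% lower, 6 were higher, Sparc, Col4a1, Col4a2, Hspg2, Col15a1 and Lamb1, and 2 lower, Bgn and Lamb2, with a median of 1.14 against untreated and 1.03 against sham members. All 6 higher genes reached 100 CPM outside the denervated members as well, while Bgn and Lamb2 were under it in the denervated members. The same medians in comparison nuclei were 0.37 and 0.29. Sparc, a collagen-binding matrix protein gene, was at 1394 CPM in untreated, 1657 CPM in sham and 4997 CPM in denervated members, from 59, 165 and 229 UMIs. The denervated level was higher by 1.84 (1.42 to 2.28) and 1.59 (1.30 to 1.89) on the log2 scale, while comparison nuclei were at 1872, 1340 and 1898 CPM. It was found in 28 of the 40 denervated members, with 37 of the 229 UMIs in 1 nucleus. Col4a1, a chain of the main basement membrane collagen, was at 804, 1134 and 3229 CPM in members and at 1223, 1193 and 1278 CPM in comparison nuclei. Its partner chain Col4a2 was at 378, 753 and 2335 CPM in members and at 826, 980 and 1080 CPM in comparison nuclei. Col15a1 was at 118, 371 and 1440 CPM in members and was also past 2-fold higher in denervated comparison nuclei, with ratios of 3.18 and 2.78, as was Lamb1 with 1.20 and 1.08. When members were chosen by Selp alone, which leaves 10 denervated nuclei, 0 genes of the list were called higher.

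**Figure D5:**
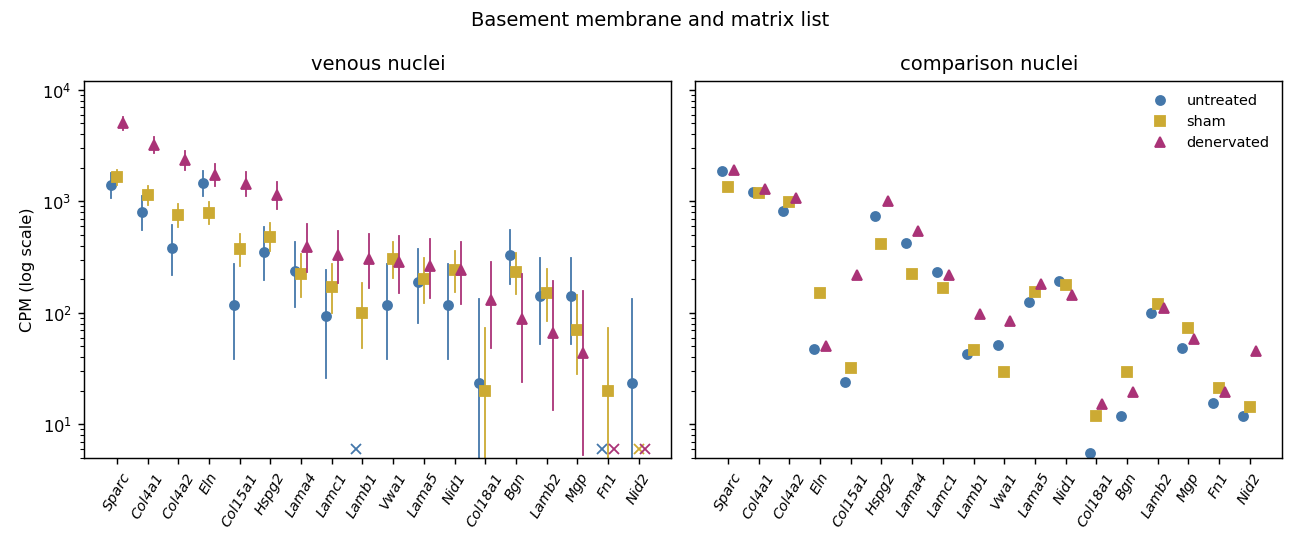
CPM on a log axis of the basement membrane and matrix list in members (left, with exact Poisson 95% intervals) and comparison nuclei (right), by library. Crosses at the foot mark 0 UMIs, and the denervated library lies above both others for Sparc, Col4a1 and Col4a2 on the left, as for Sparc at 4997 CPM, against 1898 CPM in denervated comparison nuclei.

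The 8 genes highest in denervated members by their smaller ratio were Mcam, Ckap4, Pabpc1, Hp, S100a11, Mmp14, Kdm5c and Fxr1. Mcam, which encodes the adhesion molecule CD146 of vessel walls, had 2, 4 and 32 UMIs, at 47.3, 40.2 and 698 CPM, and a ratio to sham members of 4.12 (2.62 to 6.08). The interval of its ratio to untreated members was 1.91 to 6.99. It was also higher in denervated comparison nuclei, by 1.58 and 1.93. Hp, the haptoglobin gene, was at 393 CPM in denervated members, but at 588 CPM in comparison nuclei and 508 CPM in adipocyte nuclei of that library, so its level in members was not above that of its surroundings. Of 13 genes of the vein list compared, 3 were higher and 0 lower, where 8.29% of all genes were higher and 4.09% lower. Aplnr, the apelin receptor gene, was higher at 2509 CPM against 591 and 442 CPM, from 115, 25 and 44 UMIs, while comparison nuclei stayed between 308 and 505 CPM. Icam1 and Sele were the other vein genes called, at 633 against 165 and 301 CPM and at 240 against 23.6 and 30.1 CPM. Sele, Mcam and Hp were among the genes that reached the minimum of 100 CPM in the denervated members alone, so they could hardly be called anything but higher.

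The 8 lowest were Ablim3, Plscr4, Jmjd1c, Mndal, Mycbp2, mt-Nd2, mt-Cytb and Arl15. All but mt-Nd2 and mt-Cytb were under 100 CPM in the denervated members, so they were compared only for their level in the other libraries. Ablim3, which encodes an actin-binding LIM protein, had 21, 87 and 4 UMIs, at 496, 873 and 87.3 CPM, with ratios of -2.51 (-4.51 to -0.94) and -3.32 (-5.23 to -1.92). It was also lower in denervated comparison nuclei, by -0.64 and -1.51. The mitochondrial transcripts, 8 of the 145 lower genes, went with a lower mitochondrial share in both endothelial classes. It was 3.28% of UMIs in denervated members against 8.66% and 13.2%, and 6.11% against 10.1% and 13.9% in comparison nuclei. How far this moved other genes was not tested. Of 12 genes of the capillary list, 4 were lower in denervated members, Aqp7, Btnl9, Rgcc and Timp4, from 2, 2, 8 and 4 UMIs, and 0 were higher, where 4.09% of all genes were lower. All but Rgcc were under 100 CPM in the denervated members. The list median was -0.77 against untreated and -0.96 against sham members, and in comparison nuclei it was also negative, at -0.35 and -0.13. Of 22 endothelial transcription factors compared, Ets1 was higher, and Fli1 and Klf4 were lower, where 8.29% of all genes were higher and 4.09% lower. Ets1, an ETS factor, was at 354.5, 271 and 742 CPM. Fli1, another ETS factor, was at 1087, 934 and 436 CPM, with 16 of its 46 untreated UMIs in 1 nucleus. Klf4, a flow-responsive factor, was at 544, 542 and 218 CPM in members and at 342, 290 and 374 CPM in comparison nuclei.

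Kitl was not among the genes called. Its level in denervated members differed by -0.12 (-0.81 to 0.58) from untreated and by -0.31 (-0.90 to 0.24) from sham members on the log2 scale. Lrg1 was higher than in untreated members by 1.9 and than in sham members by 0.77, and the denervated comparison nuclei were higher for it by 2.52 and 2.31. The immediate early list, genes such as Fos and Egr1 that are switched on within minutes of a stimulus or of tissue handling, summed to 1324, 4618 and 5499 CPM in members and to 2573, 2744 and 4414 CPM in comparison nuclei. It was therefore lower in members than in comparison nuclei of the untreated library and higher in the other 2 libraries, and none of its 9 genes was called in the class comparison. Between libraries 1 of the 9 genes was called higher in denervated members, where 8.29% of all genes were. This was Nr4a1, an orphan nuclear receptor gene, at 1309 CPM against 118 CPM in untreated and 442 CPM in sham members, from 60, 5 and 44 UMIs. Its ratios were 3.47 (2.17 to 5.14) and 1.57 (0.98 to 2.16), and in comparison nuclei they were 1.31 and 2.02.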

How the data were processed

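What the authors deposited are raw UMI counts, 1 whole number for each gene and barcode. Per the file headers, the BD Rhapsody pipeline made the untreated and denervated tables on GRCm38 with a GENCODE annotation. For the sham table no header was found. Removal of debris and ambient RNA, which the study's methods describe as a later step, was not repeated. No doublet caller was run, and an alternative left out nuclei with adipocyte or mural UMIs. Counts were summed by class and library. For calls, list medians and plotted ratios a lower class under 3 counts was set to 3 counts, so that a ratio can only shrink. Ratios printed for 1 or 2 counts are as counted. Exact intervals at 95% were Poisson for levels, Clopper-Pearson for shares and conditional binomial for ratios. Named were the genes of the rule, the 15 most extreme ratios each way, the 8 each way in denervated members, list genes with a call or the most UMIs, and the study's ligands and receptors. Members and gene lists were chosen with earlier results of these data known. Alternatives changed gates, marker thresholds, matching, thinning and the expression minimum, or left out a library. The ratios of members over comparison nuclei were run on simulated Poisson counts, the model that the intervals assume. This does not cover UMIs clumped in 1 nucleus or ratios between libraries. Tools were Python 3.11.15, scipy 1.17.1, numpy 2.4.6, pandas 2.3.3 and matplotlib 3.10.9.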

Additional observations from a re-analysis of the deposited data

How the results depend on the processing

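With 1 library a condition, nothing here has a replicate spread, and an exact interval or a larger count shows precision of counting only. The number of members, 170, became 113 with at least 500 detected genes, 105 with at least 3 marker UMIs, 86 with at least 2 of the 3 markers, 107 with no adipocyte or mural UMI, 87 after thinning, and 39, 41 and 92 with Vwf, Selp or Plvap alone. The 177 genes higher in members became 94 with Selp alone, 59 at a minimum of 200 CPM, and 299, 307 and 376 without the denervated, untreated or sham library. The 44 lower genes became 27 with at least 500 detected genes, 29 with at least 2 markers, 11 with Vwf alone, 3 with Selp alone, 20 with no adipocyte or mural UMI, 23 against comparison nuclei matched on UMIs, 100 without the sham and 67 without the untreated library. The 294 genes higher in denervated members became 123 with at most 10% mitochondrial UMIs, 139 with no adipocyte or mural UMI, 173 at 200 CPM, and 191, 19 and 173 with Vwf, Selp or Plvap alone. The 145 lower genes became 78 with at least 2 markers, 67 with no adipocyte or mural UMI, and 21 and 16 with Vwf or Selp alone. The list counts were followed after seeing the data, as was leaving out the deepest member of each library. The 9 vein genes became 5 at 200 CPM, the 3 capillary genes became 1 with Vwf or Selp alone and 5 with at least 3 marker UMIs or without the sham library, and the 6 matrix genes became 0 with Selp alone. Fewer nuclei or genes enter most of these settings, and the cause of each shift was not tested. Rcsd1 changed direction, with a mean ratio of 0.12 under Selp alone, and the mean ratio of Kitl, -0.38, came to 0.0031 under Vwf alone and stayed negative under the other alternatives. The median ratio of the vein list stayed positive and that of the capillary list negative under each alternative run. In the main setting 6 of the 13 vein genes compared reached the minimum only in the members, so the sign of the vein median is no support for the list. No paired analysis was possible because each group was 1 library.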
